A study of Mus musculus with 12 samples.

Results

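The 10 genes Gata6, Rarb, Prg4, Serpinb2, Alox15, Timd4, Fgfr1, Bcam, Icam2 and Itga6 are described in CD115+ monocytes as genes known from the large peritoneal macrophage. They were chosen by gene symbol, with earlier results of these same libraries over the 4 groups known, out of 52553 features in the count tables. All 10 passed the filter on low counts, which kept 20135 features. Because these data chose them, their levels and fold changes are given as a description, without p-values. Where members are counted as past the limits of a call, the count describes them and is no independent test.

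Large peritoneal macrophages are long-lived resident phagocytes of the peritoneal cavity. Their identity depends on the transcription factor GATA6, which is induced by retinoic acid, a derivative of vitamin A that cells of the cavity lining help to supply. Retinoic acid acts through nuclear receptors such as RAR beta, the product of Rarb, which bind paired half-sites in DNA, and it is broken down by enzymes such as CYP26A1. Monocytes of blood and spleen are separate cells that carry CD115, the receptor for the growth factor CSF1, and are not defined by GATA6. Macrophages carry CD115 as well.

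The libraries came from male C57BL/6 mice whose age is not given in the sources used here. The 4 groups were blood and splenic monocytes of intact animals, with both spleen and liver in place, and blood and splenic monocytes taken 24 h after removal of 70% of the liver (PH70%), with the spleen in place. Each group had 3 libraries, each pooled from 5 mice and selected with anti-CD115 magnetic beads from a gradient-separated mononuclear fraction. No sham-operated group was among the 12 libraries, so the loss of liver and the operation itself cannot be told apart. In these bulk libraries, fewer cells of a type and less RNA per cell cannot be told apart either. The tables held from 36990033 to 46401368 estimated counts per library, and levels are given as CPM, the counts divided by the library size in 1e6 counts after scaling with TMM factors.

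Promoters are shown because retinoic acid receptors and GATA factors act on known short motifs, and because Rarb and Cyp26a1 were both higher in blood after resection, as described below. Of the 10 members, 4 (Serpinb2, Timd4, Rarb and Bcam) had a promoter among the windows read from the RefSeq table of mouse assembly GRCm38.p6. The chromosome of Gata6 was left out of this search, so the promoter of Gata6 was not examined. Each window ran from 250 bases before to 50 bases after the annotated start of the gene. The 150 bases directly before the start are printed, 5′ to 3′ on the strand of the gene, with the matching letters in capitals. The retinoic acid receptor motif searched was a pair of half-sites in the same direction with 5 bases between them, each half-site being A or G followed by GGTCA or GTTCA, on either strand. Rarb is given at chr14:16575477-16575626 on the minus strand, Cyp26a1 at chr19:37697658-37697807 on the plus strand, and Serpinb2 at chr1:107511360-107511509 on the plus strand.
Rarb: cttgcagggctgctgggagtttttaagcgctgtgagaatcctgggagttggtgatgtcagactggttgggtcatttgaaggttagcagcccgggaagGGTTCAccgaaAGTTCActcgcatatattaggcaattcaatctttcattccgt
Cyp26a1: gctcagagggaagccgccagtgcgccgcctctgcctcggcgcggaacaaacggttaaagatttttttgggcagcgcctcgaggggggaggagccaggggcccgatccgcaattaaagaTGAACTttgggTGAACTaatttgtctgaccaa
Serpinb2: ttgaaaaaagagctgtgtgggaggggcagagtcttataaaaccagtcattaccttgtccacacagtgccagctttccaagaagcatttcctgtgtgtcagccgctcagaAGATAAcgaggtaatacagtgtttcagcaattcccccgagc

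The paired half-sites began 53 bases before the start in Rarb and, on the opposite strand, 32 bases before it in Cyp26a1. Such a pair was present in 32 of 32851 promoter windows of the table, or 0.0974%, and in none of the windows of Serpinb2, Timd4 and Bcam. A GATA motif, the letters GATA with A or T before and A or G after them on either strand, was present in 9778 windows, or 29.8%. It lay 41 bases before 1 of the 2 annotated starts of Serpinb2, and 1 match lay just after the start of Timd4, while the windows of Rarb, Bcam and Cyp26a1 held none. These matches describe letters in the reference, not binding in these cells.

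The labelled cell type was checked first. Csf1r, which encodes CD115, stood between 209 and 1192 CPM in all 12 libraries, so the marker of the selection was present in every group. Within a group, libraries differed by a chi-square per degree of freedom of 20.2 to 599 over genes. The libraries of intact blood replicate 3 (455 and 599 against its group) and PH70% blood replicate 3 (297 and 348) stood apart from the others of their group, whose pairs gave 61.7 and 64.1. Replicate 3 also differed most in spleen, with 75.6 and 67 against 20.2 for the other pair in intact animals. After resection the splenic values were 197 and 219 against 137. Haemoglobin genes took 13.2% to 34.2% of the counts of blood libraries and 0.0814% to 3.47% of those of spleen. Together the 10 members held 0.00394% to 0.00951% of the gene counts in spleen, 0.0518% to 0.11% in intact blood and 0.392% to 0.444% in PH70% blood. These ranges did not overlap.

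Among the regulators, Gata6, the transcription factor that defines the program, was near the limit of counting in spleen and clearly counted in blood. It had 1, 4 and 0 counts in the 3 intact spleen libraries and 7, 3 and 6 counts in PH70% spleen. Blood held 213, 111 and 173 counts in intact animals and 708, 699 and 629 after resection. On the scale of CPM this was 5.86, 2.85 and 3.78 in intact blood and 21.6, 23.7 and 17.7 after resection, without overlap. The log2 fold change in blood was 2.33 (SE 0.58), or 5.05-fold. Counting could mix in the antisense transcript Gata6os, since use of strand by the counting is not given in the sources used here. The Gata6os entries held 13.5 and 29.5 counts over all libraries, against 2554 for Gata6.

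Rarb, the retinoic acid receptor gene, followed the same order in blood. Its levels were 4.46, 5.52 and 3.52 CPM in intact blood and 21.0, 24.6 and 14.6 CPM in PH70% blood, a log2 fold change of 2.15 (SE 0.35). In spleen it was low, at 0.589, 0.647 and 0.404 CPM in intact animals and 0.187, 0.393 and 0.221 CPM after resection. The splenic libraries after resection thus lay below all intact ones, opposite to blood.

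Of the secreted products, Prg4, which encodes the lubricating proteoglycan lubricin, had the second highest level per kilobase among the members in blood. It stood at 508, 146 and 285 CPM in intact blood and at 1723, 1613 and 1655 CPM after resection. The spread between intact libraries was wide, while the PH70% libraries lay close together. In spleen all 6 libraries were between 0.771 and 1.94 CPM.

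Serpinb2, which encodes the plasminogen activator inhibitor PAI-2, had the largest fold change of the members in blood after resection. It rose from 32.0, 12.2 and 22.5 CPM to 288, 630 and 435 CPM, a log2 fold change of 4.34 (SE 0.41), or 20.3-fold. It was the only member whose 3 PH70% splenic libraries all lay above the intact ones: 0.253, 0.230 and 0.298 CPM in intact animals and 0.887, 0.786 and 0.516 CPM after resection. The splenic levels stayed far below those of either blood group.

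Alox15, the lipoxygenase that oxygenates arachidonic and linoleic acid, had the highest level per kilobase of the members in PH70% blood. Levels were 331, 103 and 142 CPM in intact blood against 2760, 2949 and 2042 CPM after resection, a log2 fold change of 3.75 (SE 0.62), or 4.45 without intact blood replicate 1. Spleen held 4.27, 2.50 and 10.1 CPM in intact animals and 3.36, 3.27 and 1.47 CPM after resection, and these ranges overlapped.

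Among the surface receptors, Timd4, which binds phosphatidylserine on dying cells, did not follow the other members in blood. Its levels were 40.7, 19.3 and 24.9 CPM in intact blood and 38.4, 43.5 and 25.8 CPM after resection, so the groups overlapped and the log2 fold change was 0.34 (SE 0.37). In spleen it went from 12.2, 6.64 and 5.62 CPM to 4.34, 5.46 and 3.07 CPM. Timd4 was also counted under a second transcript entry, which held 351.5 of its counts over all libraries and 0 in each of the 3 PH70% blood libraries, against 92.5, 29.7 and 97.3 in intact blood. Both entries are summed here.

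Fgfr1, a receptor for fibroblast growth factors, was at 105, 73.7 and 40.8 CPM in intact blood and at 301, 312 and 314 CPM after resection. The 3 PH70% libraries were nearly equal, and the log2 fold change was 2.08 (SE 0.29). The splenic groups overlapped, with 5.05, 6.18 and 4.53 CPM in intact animals, 4.72, 4.83 and 6.24 CPM after resection, and a log2 fold change of 0.00 (SE 0.29).

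After Timd4, the adhesion genes had the smallest fold changes of the members with resection in blood. Bcam, a receptor for laminin, moved from 24.7, 11.5 and 15.5 CPM to 39.9, 44.2 and 35.6 CPM in blood (log2 fold change 1.21, SE 0.28). Itga6, the laminin-binding integrin alpha 6 chain, moved from 224, 143 and 140 CPM to 446, 495 and 432 CPM (log2 fold change 1.44, SE 0.27). In neither gene did the blood groups overlap. Their splenic levels were between 0.590 and 1.16 CPM for Bcam and between 6.81 and 20.2 CPM for Itga6.

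Icam2, a ligand of the leukocyte integrin LFA-1, was the member least tied to blood. Intact spleen held 33.3, 36.1 and 34.4 CPM and intact blood 40.3, 32.4 and 31.2 CPM, so the tissues overlapped before resection. After resection blood rose to 106, 119 and 56.7 CPM while spleen held 24.0, 23.3 and 11.6 CPM. The log2 fold change in blood was 1.44 (SE 0.31).

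**Figure D1:**
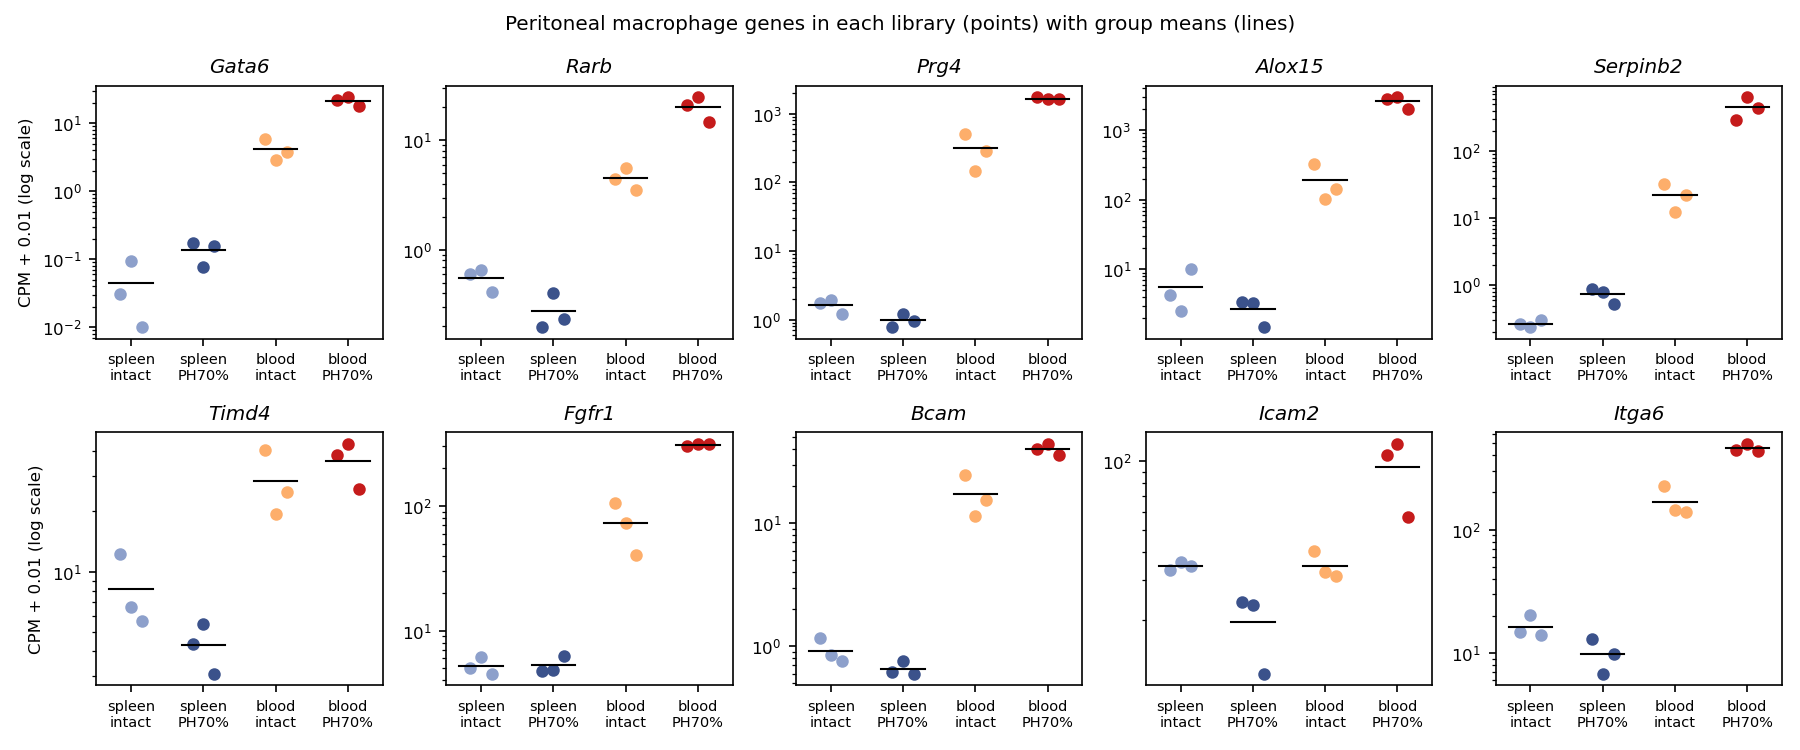
Level of each member in the 12 libraries, as CPM plus 0.01 on a log axis, with points for libraries and lines for group means of spleen and blood, intact or 24 h after 70% resection (PH70%). In 9 of the panels the 3 PH70% blood libraries lie above the intact blood libraries, and in Timd4 they overlap.

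Levels of different genes were compared per kilobase of the longest GENCODE M21 coding transcript, since the gene lengths used in the authors' counting are not known. In PH70% blood the order of mean CPM per kilobase (± SD, n = 3) was Alox15 (1072 ± 199), Prg4 (390.2 ± 13.0), Serpinb2 (226 ± 86.0), Itga6 (106 ± 7.64), Icam2 (73.3 ± 25.6), Fgfr1 (61.4 ± 1.38), Timd4 (16.5 ± 4.19), Bcam (16.4 ± 1.76), Gata6 (6.50 ± 0.947) and Rarb (6.45 ± 1.64). Icam2 and Fgfr1, Timd4 and Bcam, and Gata6 and Rarb differed by less than the larger of their SDs. In intact blood Alox15 (79.8 ± 50.6) and Prg4 (73.4 ± 42.8) were again the highest and Gata6 (1.29 ± 0.477) and Rarb (1.45 ± 0.323) the lowest, and each of these pairs lay within its spread. Spleen had another order, led in intact animals by Icam2 (27.0 ± 1.08), Itga6 (3.79 ± 0.791) and Timd4 (3.76 ± 1.64). The defining factor Gata6 was thus among the least abundant transcripts of the list in every group.

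The first question was how resection moved these genes in blood. Calls required an adjusted p-value (Benjamini-Hochberg, over all features) under 0.05 in edgeR's quasi-likelihood test, and an absolute log2 fold change above 1. By this rule 9 of the 10 members were called higher in PH70% than in intact blood and none lower, against 7.80% of all features tested that were called higher and 6.11% called lower. In 9 members the 3 PH70% libraries lay above all 3 intact ones, against 19.4% of all features. Since the members were chosen with these data known, nothing is read from the comparison with the background. Their median log2 fold change was 2.12 and that of all features was -0.10. Without intact blood replicate 3 or without PH70% blood replicate 3, the blood libraries that stood apart, 9 members were called again. The log2 fold changes of all 10 then ran from 0.25 to 4.35 and from 0.55 to 4.40. Gata6 lost its call without intact blood replicate 2 (log2 fold change 2.14), PH70% blood replicate 1 (2.33) or PH70% blood replicate 2 (2.24), and Bcam (1.14) and Icam2 (1.24) lost theirs without PH70% blood replicate 2.

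In spleen none of the 10 members was called in edgeR and DESeq2 called 1, Serpinb2, as higher. The lack of a call does not show that a member was unchanged, and Gata6 had at most 7 counts in a library. Among all features 0.780% were called higher and 0.596% lower. The log2 fold changes were 1.75 (SE 0.75) for Gata6 and 1.48 (SE 0.47) for Serpinb2, 0.00 for Fgfr1, and below 0 for the other 7, from -0.49 in Bcam to -1.05 in Alox15. The value of Gata6 was 3.22 without intact spleen replicate 2, and that of Alox15 was -0.33 without intact spleen replicate 3. Rarb, Timd4, Bcam, Icam2 and Itga6 had all 3 PH70% libraries below the intact ones (17.7% of all features did so), and Serpinb2 had them above (17.4% of all features). The summed level of the members was 71.3 to 75.4 CPM in intact spleen and 34.6 to 52.1 CPM after resection. Markers of other cells moved in the same comparison. The 5 erythroid markers summed to 531 to 2568 CPM in intact and 5546 to 24378 CPM in PH70% spleen, and the 6 neutrophil markers to 737 to 1668 CPM and 4631 to 12676 CPM, with Ltf called higher (1.89, edgeR adjusted p = 0.0253). The 5 B-cell markers summed to 3910 to 4447 CPM and 1071 to 3315 CPM. The 5 red pulp macrophage markers summed to 1010.5 to 1556 CPM in intact and 2054 to 3442 CPM in PH70% spleen. Of these Hmox1 was called higher (1.79, edgeR adjusted p = 0.0345). The part of these cells in the members' values was not tested.

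The second question was how the tissues differed. In intact animals 9 of the 10 members were called higher in blood than in spleen, against 3.86% of all features called higher and 3.49% called lower, and the same 9 did not overlap, against 13.6% of all features. The log2 fold changes were 7.58 (SE 0.50) for Prg4, 6.40 (SE 0.48) for Serpinb2, 5.09 (SE 0.66) for Alox15, 4.23 (SE 0.31) for Bcam and 3.80 (SE 0.32) for Fgfr1. They were 3.37 (SE 0.29) for Itga6, 3.03 (SE 0.36) for Rarb and 1.79 (SE 0.39) for Timd4, and 0.00 (SE 0.31) for Icam2. The fitted value of Gata6, 6.77 (SE 0.77), is set against 5 counts over all intact spleen libraries and depends on the prior count, and it was 8.35 without intact spleen replicate 2. The value of Alox15 was 5.93 without intact spleen replicate 3 and 4.49 without intact blood replicate 1. Timd4 lost its call without intact spleen replicate 2 (1.77) or 3 (1.69), without intact blood replicate 1 (1.47) and in a fit of these 2 groups alone (1.80).

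After resection all 10 members were called higher in blood, against 6.28% of all features called higher and 6.87% called lower, and all 10 were without overlap, against 17.2% of all features. The log2 fold changes ran from 2.26 (SE 0.32) in Icam2 and 3.06 (SE 0.41) in Timd4 to 9.90 (SE 0.81) in Alox15 and 10.73 (SE 0.57) in Prg4. All 10 were called in each of the alternatives that were run. The comparisons share groups with each other, so their values are given side by side and are not independent.

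**Figure D2:**
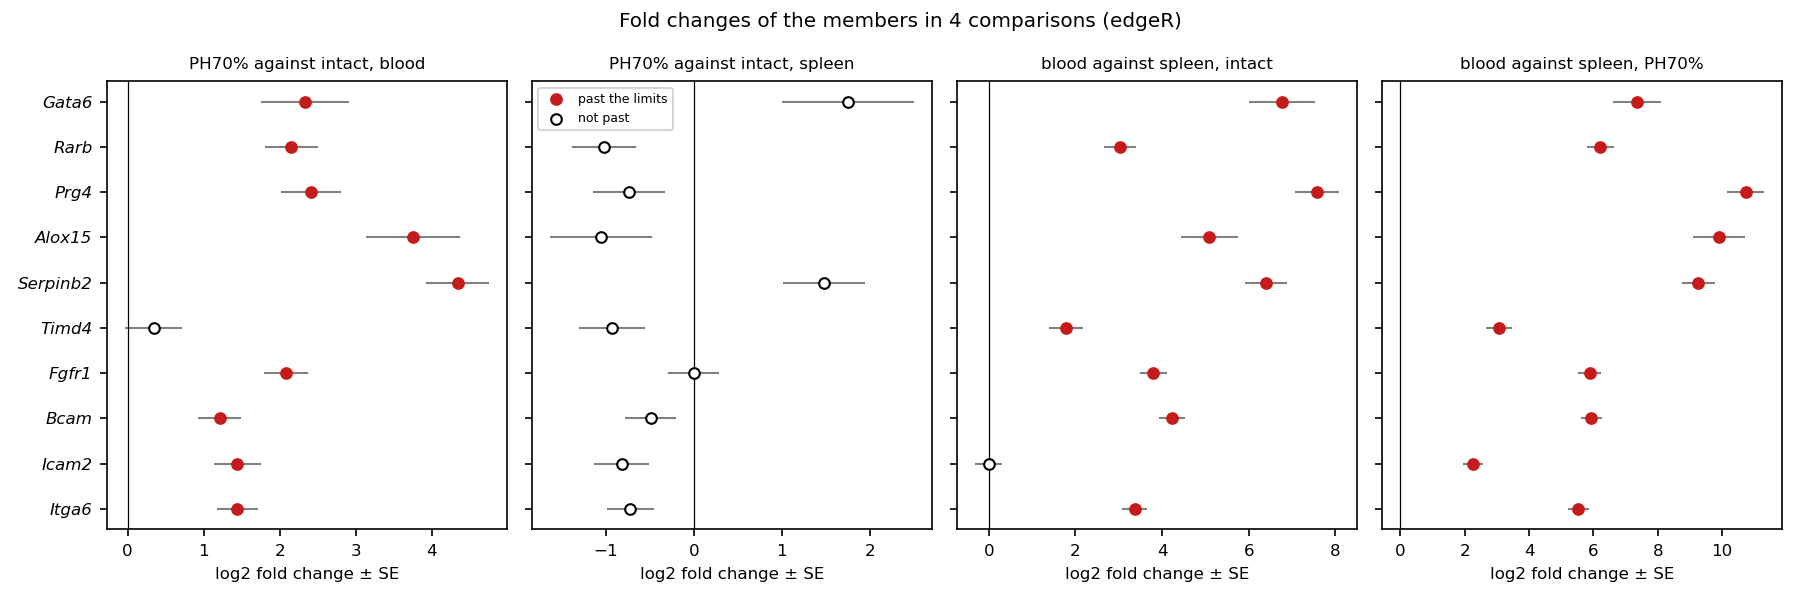
Fitted log2 fold change of each member with its standard error in 4 comparisons, with filled points for those past both limits of the call (adjusted p under 0.05 and absolute log2 fold change above 1). Filled points number 9 for resection in blood, 0 for resection in spleen, 9 for blood against spleen in intact animals and 10 after resection.

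The difference between the resection effects in blood and spleen ran from 0.59 (SE 1.15) in Gata6 to 4.80 (SE 0.83) in Alox15. It turned to -0.89 in Gata6 without intact spleen replicate 2, and that of Alox15 was 4.07 without intact spleen replicate 3 and 5.50 without intact blood replicate 1. Of the members only Rarb, with 3.18 (SE 0.50), was past the limits in edgeR, against 0.219% of all features called higher. DESeq2 called 8, and the count ran from 0 to 5 when single libraries were left out. Rarb kept its call when intact blood replicate 3 was left out and lost it when any 1 of the other 11 libraries was.

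The members did not keep one ratio to each other in blood. Relative to Gata6 counts in the same library, Timd4 had 6.94, 6.78 and 6.60 counts per Gata6 count in intact blood and 1.78, 1.83 and 1.46 after resection. Bcam was as even, with 4.21, 4.02 and 4.10 in intact blood and 1.85, 1.86 and 2.01 after resection. Thus, Timd4 and Bcam varied little between libraries of a group relative to Gata6 while their CPM varied, and both ratios were lower after resection without overlap.

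Icam2 and Itga6 were also lower relative to Gata6, from means of 8.82 to 4.38 and of 41.8 to 22.0. Alox15 went the other way, with 56.5, 36.2 and 37.7 counts per Gata6 count in intact blood and 128, 124 and 115 after resection. Serpinb2 did so too, with 5.46, 4.28 and 5.96 against 13.3, 26.6 and 24.6. Prg4 (means of 71.1 and 80.4), Fgfr1 (18.2 and 14.9) and Rarb (1.21 and 0.943) overlapped between the groups. These ratios come from counts not scaled between libraries, and they share the Gata6 count as denominator. Within intact blood, replicate 1 had the highest CPM in 9 of the 10 members, with Rarb as the exception. Within PH70% blood, replicate 2 was highest in 8 members and replicate 3 lowest in 7.

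**Figure D3:**
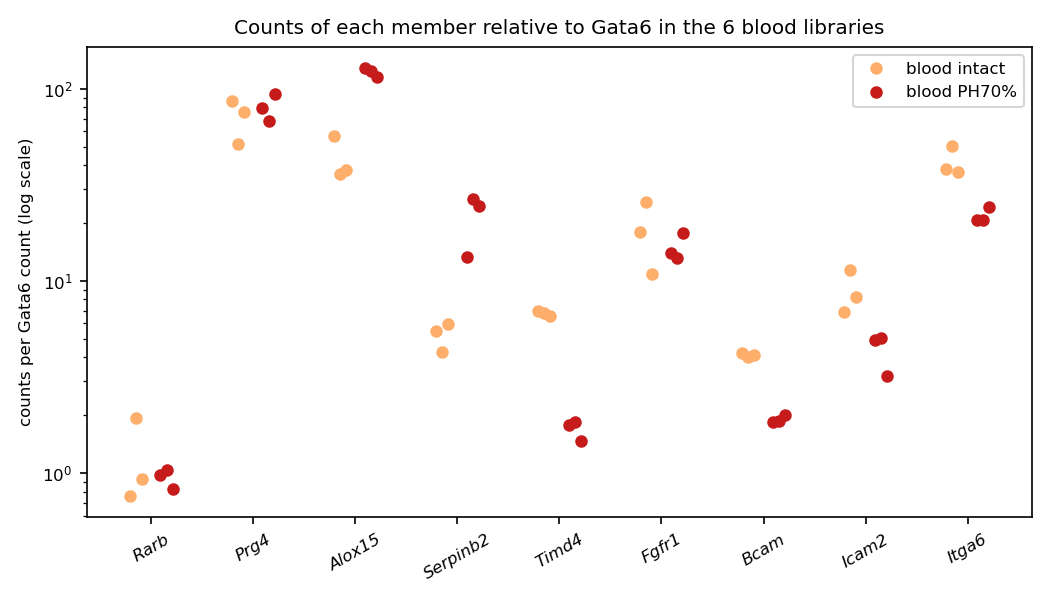
Counts of 9 members per Gata6 count in each of the 6 blood libraries, on a log axis, with intact and PH70% libraries in 2 colours. Alox15 and Serpinb2 lie higher after resection, Timd4, Bcam, Icam2 and Itga6 lower, and Rarb, Prg4 and Fgfr1 overlap.

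Other genes known from large peritoneal macrophages were followed in a list of 17. The list was chosen with earlier results of these libraries known, as were the lists that follow, so their counts are not independent evidence of a direction and nothing is read from the comparison with the background. In blood after resection 15 of the 17 were called higher and none lower (7.80% and 6.11% of all features), with a median log2 fold change of 2.83 against -0.10 for all features. Adgre1, which encodes the macrophage antigen F4/80, rose from 131, 64.5 and 119 CPM to 810.3, 1140 and 793 CPM (log2 fold change 3.13, SE 0.30, edgeR adjusted p = 0.000508). Garnl3 rose by 3.71 (SE 0.47, adjusted p = 0.00135) and Aspa, which encodes aspartoacylase, by 4.36 (SE 0.62, adjusted p = 0.00196). The latent TGF-beta binding protein gene Ltbp1 rose by 2.46 (SE 0.49, adjusted p = 0.00757), or 3.23 without intact blood replicate 1. The count of 15 fell to 7 without intact blood replicate 2, to 9 without PH70% blood replicate 2 and to 8 without PH70% blood replicate 3, and it was 11 without intact blood replicate 3. Adgre1, Aspa, Cd93, Garnl3, Ltbp1, Naip1 and Selp were called under every alternative run.

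The secreted products of this list included the coagulation factor genes F5 and F10, the complement gene C4b and the B-cell attractant Cxcl13. F5 rose from 285, 124 and 96.2 CPM to 509, 509 and 658 CPM (adjusted p = 0.0209). F10 rose from 28.6, 16.7 and 19.8 CPM to 311, 397 and 689 CPM (adjusted p = 0.0184). C4b, whose reads could be shared with its close copy C4a, rose from 422, 163 and 239 CPM to 1308, 1364 and 1310 CPM (adjusted p = 0.0383). Cxcl13 was uneven after resection, at 27.1, 88.4 and 383 CPM against 8.26, 4.96 and 15.9 CPM (adjusted p = 0.0242). Replicate 3 of PH70% blood was the highest in each of F5, F10 and Cxcl13, and without it none of these 3 nor C4b was called. F5, F10, C4b and Cxcl13 also lost their calls without intact blood replicate 2. Over all alternatives the call of C4b was lost in 10 of 20, those of F5 and Cxcl13 in 4 and that of F10 in 3. The log2 fold change of Cxcl13, 4.09, was 2.63 without PH70% blood replicate 3.

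Saa3, an acute-phase gene, had the largest log2 fold change of the list, 5.99 (SE 1.87, adjusted p = 0.046), at 49.0, 10.7 and 217 CPM in intact blood and 3760, 5120 and 8776 CPM after resection. Vsig4, a complement receptor gene, rose by 2.46 (adjusted p = 0.0175), Selp by 2.83 (adjusted p = 0.0146), Cd93 by 2.51 (adjusted p = 0.0071) and Naip1, 1 of several close copies, by 2.85 (adjusted p = 0.00192). Tgfb2 rose by 1.48 (adjusted p = 0.0441) and Cd9 by 1.31 (adjusted p = 0.0231). Saa3, Vsig4, Tgfb2 and Cd9 lost their calls without intact blood replicate 2 and without PH70% blood replicate 2, and Saa3, Tgfb2 and Cd9 also without PH70% blood replicate 3. Over all alternatives the call of Tgfb2 was lost in 14 of 20, that of Saa3 in 8, that of Cd9 in 5 and that of Vsig4 in 2. Without intact blood replicate 3 the value of Saa3 was 7.61, and without intact blood replicate 1 that of Selp was 3.59 and that of Tgfb2 2.12. The scavenger receptor gene Marco (3.63, adjusted p = 0.0915) and Nt5e, which encodes CD73 (0.48, adjusted p = 0.421), did not pass. Selp and Cd9 are platelet genes as well, Adgre1 encodes an antigen of macrophages in general and Saa3 is an acute-phase gene. No gene of the list was shown here to be particular to peritoneal macrophages.

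In spleen after resection none of the 17 was called in edgeR, 5 had an unadjusted p under 0.05 and DESeq2 called 4. In intact animals 9 of the 17 were called higher in blood than in spleen and none lower (3.86% and 3.49% of all features). Among the 9 were Vsig4 (5.82, adjusted p = 0.00238), C4b (5.61, adjusted p = 0.00366), Ltbp1 (4.69, adjusted p = 0.00196) and Tgfb2 (3.94, adjusted p = 0.00264). Without intact spleen replicate 1 the value of C4b was 7.02, and without intact blood replicate 1 that of Ltbp1 was 4.0. Adgre1 (0.31, adjusted p = 0.54) and Cd93 (-0.75, adjusted p = 0.349) were not. After resection 14 were called higher in blood and 1 lower (6.28% and 6.87% of all features). The latter was Marco (-4.54, adjusted p = 0.0416), with 321 CPM in PH70% spleen replicate 3 against 21.5 and 5.07 CPM in the others of its group. Without that replicate the value of Marco was -1.31, and its call was lost in 13 of 20 alternatives. None of the 17 was called for the difference of the resection effects, where 9 had an unadjusted p under 0.05 and DESeq2 called 7.

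**Figure D4:**
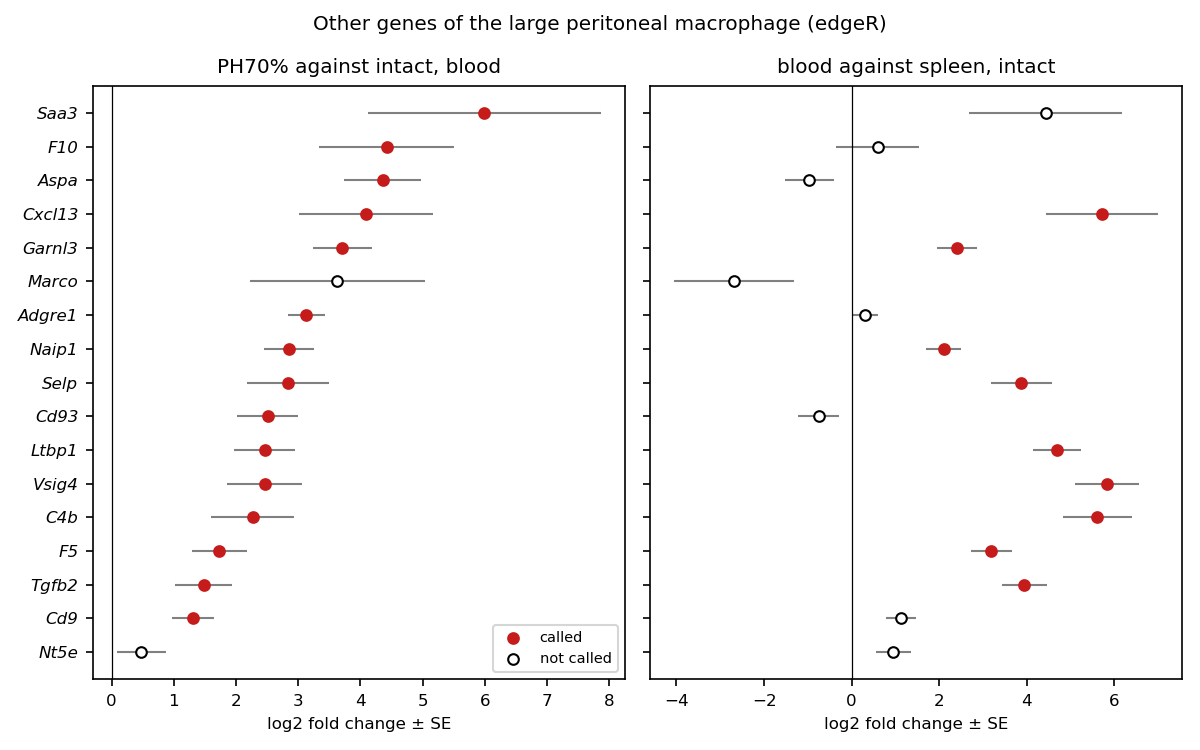
Fitted log2 fold change with its standard error for the 17 other large peritoneal macrophage genes, for resection in blood and for blood against spleen in intact animals, with filled points for called genes. On the left 15 points are filled, on the right 9, and Adgre1, Cd93, Aspa, F10, Saa3 and Cd9 are filled only on the left.

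Genes of the retinoic acid pathway were followed because Gata6 and Rarb respond to it. Of 20 listed genes 15 passed the filter, and in blood after resection 3 were called higher and 1 lower (7.80% and 6.11% of all features). Cyp26a1, the retinoic acid degrading enzyme whose promoter is printed above, was at 0.0275, 0.103 and 0.0218 CPM in intact blood and at 4.21, 2.58 and 5.07 CPM after resection (log2 fold change 6.21, SE 0.66, edgeR adjusted p = 0.00067). Intact blood held 1, 4 and 1 counts of it and PH70% blood 138, 76 and 180, so the size of this fold change is limited by depth and depends on the prior count. Its level in spleen was between 0.0842 and 0.149 CPM, or 4 to 7 counts, in all 6 libraries, so it passed the filter through PH70% blood alone. The difference of the resection effects, 6.26 (SE 0.84, adjusted p = 0.0317), has the same limit. The call in blood held under every alternative run, with log2 fold changes of 5.84 to 7.19, while that of the difference was lost in 8 of 19 alternatives, among them those without any 1 of the intact spleen libraries, PH70% spleen replicate 1 or 2, or PH70% blood replicate 2 or 3 (5.90 to 7.26).

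Tgm2, which encodes tissue transglutaminase, rose in blood from 29.1, 27.3 and 39.6 CPM to 329, 530.3 and 818 CPM (log2 fold change 4.13, adjusted p = 0.000394), and its resection effect differed from that in spleen by 2.97 (adjusted p = 0.0334), a difference whose call was lost in 9 of 19 alternatives (2.64 to 3.28). Dhrs3, a retinaldehyde reductase gene, rose by 1.56 (adjusted p = 0.00782). Rdh10, which encodes the retinol dehydrogenase that makes retinaldehyde, fell by 1.56 (adjusted p = 0.0216), from 11.0, 11.3 and 33.4 CPM to 5.25, 7.47 and 6.14 CPM. Without intact blood replicate 3, the library that held 33.4 CPM, its log2 fold change was -0.83 and it was not called, nor was it without PH70% blood replicate 1 or 3. Of the other nuclear receptor genes Rara (0.12, adjusted p = 0.83), Rarg (0.65, adjusted p = 0.277) and Rxra (0.67, adjusted p = 0.0779) were not called, so Rarb was the only receptor of the RAR and RXR genes tested with a call in this comparison. Rxrg stayed below 1 CPM and was not called either (adjusted p = 0.0829), and Rxrb was under the limit of the fold change (-0.42, adjusted p = 0.0176).

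The retinoic acid synthesizing enzyme gene Aldh1a2 was higher in blood than in spleen, at 33.8, 30.2 and 7.43 CPM against 0.947, 0.877 and 0.383 CPM in intact animals (log2 fold change 5.01, adjusted p = 0.00297). It held 25.9, 18.5 and 9.71 CPM in PH70% blood and was not called for resection (-0.40, adjusted p = 0.655). Aldh1a1 was also higher in intact blood (4.09, adjusted p = 0.0189, or 5.00 without intact spleen replicate 3), with Cyp26b1 (3.94, adjusted p = 0.0293, or 2.46 without intact blood replicate 3) and Dhrs3 (1.13, adjusted p = 0.0484), while Tgm2 was lower (-1.65, adjusted p = 0.0109). After resection 6 of the 15 were called higher in blood (6.28% of all features were), namely Cyp26a1, Cyp26b1, Aldh1a2, Dhrs3, Tgm2 and Rarg. None was called for resection in spleen, where 3 had an unadjusted p under 0.05 and DESeq2 called 2 higher.

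The other GATA factor genes were read beside Gata6. Gata4 had 0, 1 and 1 counts in intact blood and 4, 3 and 2 after resection, and Gata5 had 0, 1 and 0 counts and 8, 4 and 3. Both were at 0 in all splenic libraries, so at very few counts they had the same order of groups as Gata6, and neither passed the filter to be tested. Gata1 (0.29, adjusted p = 0.80) and Gata2 (-1.05, adjusted p = 0.234) were not called in blood. Gata3 was called lower after resection (-4.67, adjusted p = 0.0129), but it stood at 258 CPM in intact blood replicate 3, a library that stood apart, and at 21.3 and 18.7 CPM in the other two. Without replicate 3 of intact blood its log2 fold change was -2.36 and still called, and the call was lost in 3 of 20 alternatives, namely in DESeq2, without PH70% blood replicate 3 and in a fit of both blood groups alone. Cebpb (1.75, adjusted p = 0.0246) and Bhlhe40 (2.25, adjusted p = 0.0144), which encode transcription factors used by peritoneal macrophages, were called higher. Cebpb lost its call without replicate 2 or 3 of either blood group and with the replicate number as a block. Klf2 (-0.32, adjusted p = 0.668) and Klf4 (-0.13, adjusted p = 0.89) of the same list were not called. Of 7 tested genes in this list, 2 were called higher and 1 lower in blood (7.80% and 6.11% of all features). In spleen Cebpb (1.18) and Bhlhe40 (1.87) also had values above 0 and were not called. Their resection effects differed between the tissues by 0.57 and 0.38, not called either.

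Genes whose products work with the members were followed in a list of 18, of which 17 were tested. In blood after resection 10 were called higher and none lower (7.80% and 6.11% of all features). This list too was chosen with earlier results known, so nothing is read from that comparison. Itgb1, the integrin chain that pairs with the product of Itga6, was very even within groups, at 383, 388 and 385 CPM in intact blood and 766, 850 and 776 CPM after resection (log2 fold change 1.05, SE 0.14, adjusted p = 0.00148). Itgb2, a chain of the receptor that Icam2 binds, rose by 1.91 (adjusted p = 0.00311), while its partner Itgal did not pass (-0.60, adjusted p = 0.176). Tlr2 and Cd44, receptors that lubricin can bind, rose by 2.75 (adjusted p = 0.00168) and 1.66 (adjusted p = 0.00794).

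The urokinase gene Plau, whose product PAI-2 inhibits, rose by 3.40 (adjusted p = 0.00714, or 4.16 without intact blood replicate 2), and its receptor gene Plaur by 1.85 (adjusted p = 0.0126). Alox5 (2.58, adjusted p = 0.00296) and Alox5ap (2.69, adjusted p = 0.0124) of leukotriene synthesis rose with Alox15, and the platelet-type lipoxygenase gene Alox12 did not pass (0.32, adjusted p = 0.722). Fgf1, a ligand of FGFR1, rose by 2.30 (adjusted p = 0.00602) from a low level, 0.180 to 0.303 CPM. The laminin gene Lamc1 rose by 1.48 (adjusted p = 0.0208). Lamc1 and Plaur lost their calls without PH70% blood replicate 3, and Lamc1 also without intact blood replicate 1 or PH70% blood replicate 2. None of the 17 was called for resection in spleen, where 7 had an unadjusted p under 0.05 and DESeq2 called 3. None was called for the difference of the effects either, with 5 under 0.05 and 4 called by DESeq2.

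Markers of other cells were read beside these values. The 10 mesothelial markers summed to 1.23 to 2.02 CPM in intact spleen, 1.94 to 2.61 CPM in PH70% spleen, 2.12 to 4.37 CPM in intact blood and 8.19 to 8.83 CPM in PH70% blood. Of 7 tested, 4 (Msln, Upk3b, Krt19 and Nkain4) were called higher in intact blood than in intact spleen (3.86% of all features were). After resection 6 were called higher in blood than in spleen (6.28% of all features). For resection in blood none was called, and 2 had an unadjusted p under 0.05. The 4 named genes held 0 to 2 counts in each intact spleen library and 6 to 45 in each intact blood library. They passed the filter through blood alone, so their calls against spleen are limited by depth and are no independent test. Msln was at 0.220, 0.257 and 0.939 CPM in intact blood and 1.71, 1.19 and 2.17 CPM after resection, and Wt1 stayed at or below 0.478 CPM. DESeq2 called 1 of the 7 mesothelial markers for resection in blood. The mesothelial sum was highest in the group where the members were highest, and so were the platelet and Kupffer cell sums. The platelet sum was 14.4 to 24.0 CPM in intact and 14.2 to 31.2 CPM in PH70% spleen. In blood it was 79.9 to 286 CPM in intact animals and 781 to 872 CPM after resection. The Kupffer cell sum was 455 to 693 CPM in PH70% blood and at most 398 CPM elsewhere, in PH70% spleen. The part of mesothelial RNA in the members' values was not tested.

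The 6 peritoneal mast cell markers summed to 4.02 to 9.92 CPM in intact and 2.34 to 5.47 CPM in PH70% blood, and Mrgprb2 was at 0 in all PH70% blood libraries. Of 5 tested, 1, Tpsab1, was called higher after resection (3.31, adjusted p = 0.0106), against 7.80% of all features. The other 4 had values below 0, from -0.72 in Mcpt4 to -1.42 in Cma1, and were not called. Tpsab1 held 4, 6 and 3 counts in intact blood and 17, 43 and 48 after resection, so its fold change is limited by depth. In spleen its value was 3.05, which was not called (adjusted p = 0.0529). Retnla, a marker of small peritoneal macrophages, was at 525, 481 and 96.1 CPM in intact blood and 588, 309 and 204 CPM in PH70% blood, with at most 0.344 CPM in spleen. Its log2 fold change with resection in blood was 0.00 (SE 0.76), which was not called. Cd226 of the same list was higher in intact blood than in intact spleen (2.77, adjusted p = 0.0118), while Irf4 was not (-1.61, adjusted p = 0.101). None of the 6 genes was called for resection in blood, where 1 had an unadjusted p under 0.05 and DESeq2 called 1 lower.

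Red pulp macrophage markers had the opposite tissue order. They summed to 1010.5 to 1556 CPM in intact spleen and 42.1 to 76.9 CPM in intact blood. All 5 were called lower in blood (3.49% of all features were), Vcam1 by -10.32 (adjusted p = 0.00024) and Spic by -5.71 (adjusted p = 0.00129). In PH70% blood they summed to 602 to 927 CPM, of which Hmox1 made up 565 to 801 CPM. There 4 of the 5 were called higher than in intact blood (7.80% of all features were). Slc40a1 lost its call in 7 and Spic in 3 of 20 alternatives, both of them without intact blood replicate 1 or PH70% blood replicate 3. The Kupffer cell marker Clec4f was at 0 in all PH70% blood libraries, while Folr2 of the same list was higher in intact blood than in intact spleen (7.05, adjusted p = 0.00274, or 5.72 without intact blood replicate 3) and Cd5l ran from 14.8 to 334 CPM in intact and 431 to 645 CPM in PH70% blood. Of the 4 tested endothelial markers 1, Tie1, was called higher in PH70% blood (1.30, adjusted p = 0.0335, lost in 12 of 20 alternatives), against 7.80% of all features. Pecam1 (-0.66, adjusted p = 0.0854), Kdr (-0.42, adjusted p = 0.886) and Egfl7 (0.35, adjusted p = 0.765) were not called. The endothelial sum was 82.8 to 123 CPM in intact and 56.7 to 84.4 CPM in PH70% blood, and Cldn5 was at or near 0 in blood.

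Neutrophil markers moved with resection in blood. All 6 were called higher (7.80% of all features were), from 2.54 in Camp to 5.97 in S100a8. Their sum went from 95.9 to 275 CPM to 3191 to 16922 CPM, highest in replicate 3. Without that replicate S100a8 had a log2 fold change of 4.69, and Mmp8 one of 3.77 in place of 5.24. Mmp8 lost its call there and with the replicate number as a block, and Camp had 3.13 without intact blood replicate 1. The platelet gene Pf4 rose by 3.71 (adjusted p = 0.00656), the other 4 platelet markers did not pass, and the platelet sum went from 79.9 to 286 CPM to 781 to 872 CPM. Against spleen, 4 of the 5 platelet markers were called higher in intact blood (3.86% of all features were). These were Pf4 (4.62), Ppbp (4.27), Itga2b (3.82) and Gp9 (3.33). After resection all 5 were called higher in blood than in spleen (6.28% of all features were). Monocyte markers summed to 716 to 1908 CPM in intact and 1660 to 2001 CPM in PH70% blood, with Fcgr4 called higher (2.66, adjusted p = 0.0204) and Cx3cr1 lower (-2.20, adjusted p = 0.0165), calls lost in 3 and 2 of 20 alternatives, both of them without PH70% blood replicate 3, Fcgr4 also without intact blood replicate 1 or 2 and Cx3cr1 without PH70% blood replicate 2. No B-cell, erythroid or eosinophil marker was called for resection in blood, where 2 eosinophil markers had an unadjusted p under 0.05 and DESeq2 called 1. The part of these cells in the members' values was not tested.

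**Figure D5:**
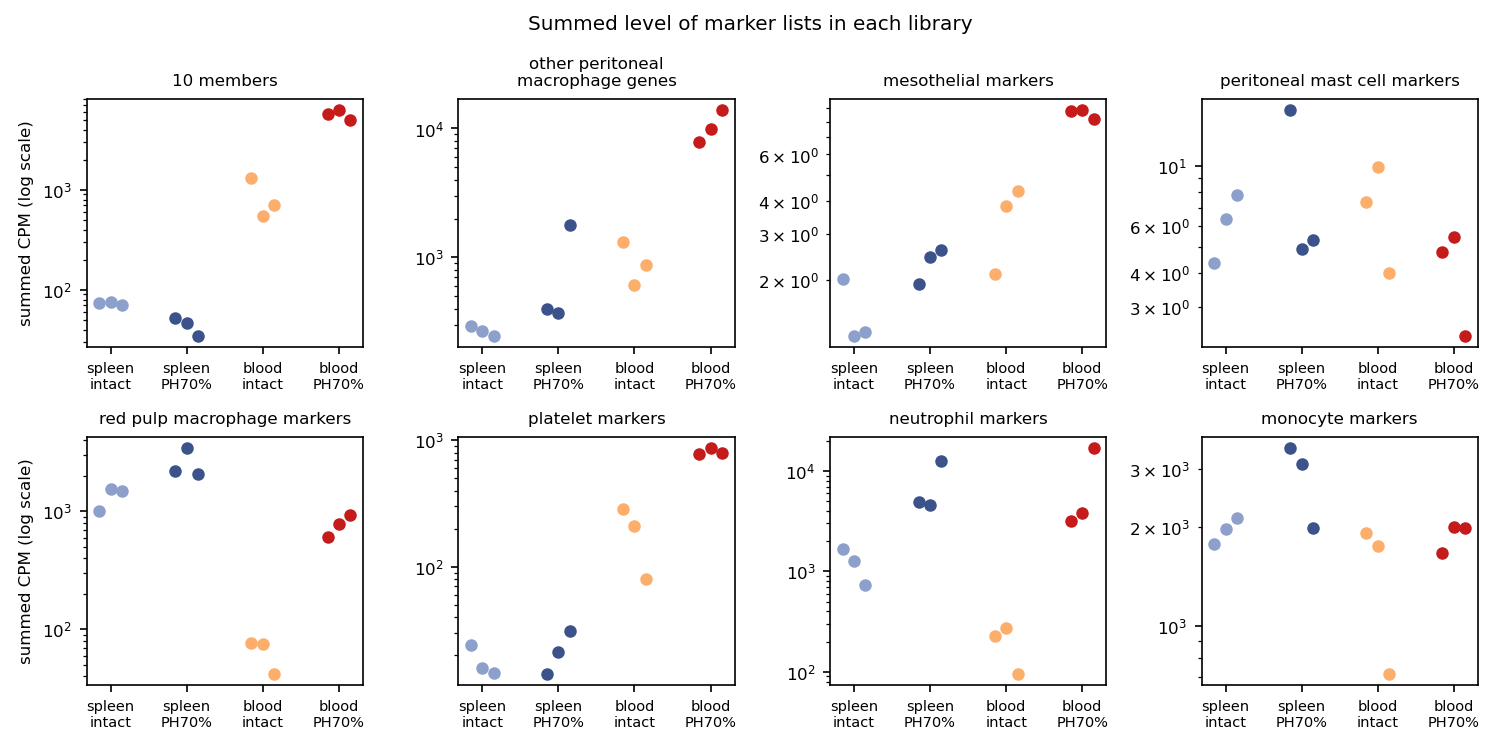
Summed CPM of 8 gene lists in each of the 12 libraries on log axes, by tissue and state. The members and the other peritoneal macrophage genes are highest in PH70% blood. So are the mesothelial sums at 8.19 to 8.83 CPM and the platelet sums at 781 to 872 CPM, while red pulp macrophage sums are highest in spleen.

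The genes with the most similar pattern were found by Pearson correlation over the 12 libraries with the mean standardized log2 CPM of the members. The 10 highest were Wnt2 (0.993), Col6a5 (0.988), Bicc1 (0.988), C4a (0.986), Rp1 (0.986), Tgfb2 (0.986), Lama3 (0.985), Nkain4 (0.984), AI606473 (0.981) and Osr1 (0.981). The 12 points share 2 tissues and 2 states, so these values mostly describe group means. Wnt2, which encodes a secreted WNT ligand, was at 3.33, 0.951 and 1.79 CPM in intact blood and 10.4, 11.4 and 4.98 CPM after resection, and at 0 in 5 of the 6 spleen libraries. Lama3, a laminin chain gene, was at 3.28, 0.899 and 1.16 CPM against 6.87, 7.17 and 5.18 CPM. Col6a5, Bicc1, Nkain4 and Osr1 stayed below 1 CPM in every library. Of the members themselves, 8 correlated with their mean profile at 0.97 or above, Timd4 at 0.947 and Icam2 at 0.833. That mean includes each member itself, and the members were chosen with these data known, so high values were partly fixed in advance.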

How the data were processed

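RNA-seq was made from 12 libraries of CD115+ monocytes, 3 in each of 4 groups taken from the sample labels, each from 5 pooled mice. For each library the authors deposited a table of estimated counts, not scaled to library size or gene length. The submitters' processing notes name STAR and GRCm39 without versions, and the counting tool is not given in the sources used here. RefSeq accessions were summed to gene symbols with the gene table of GRCm38.p6, used for names only, and unassigned transcripts (1.75% to 4.33% of a library) were left out. Counts were rounded. In R 4.3.3 with edgeR 4.0.16, features kept by filterByExpr were scaled with TMM factors and tested by a robust quasi-likelihood fit over all 12 libraries without covariates, with Benjamini-Hochberg adjustment over 20135 features. Standard errors are the absolute log2 fold change divided by the square root of F. At these depths 3 counts correspond to 0.0626 to 0.102 CPM, which covers counting error only. The fit was checked on simulated counts.

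The members and lists were chosen with earlier results of these data known. Named genes are the members, list genes that were called or stand first in their list, and the 10 most similar genes. Alternatives were DESeq2 1.42.0, RLE factors, 2 other count filters, no summing of accessions, no haemoglobin genes, no fold-change limit, only the groups compared, the replicate number as a block, and each library left out. Promoters were read from the RefSeq table for GRCm38.p6 and coding transcript lengths from GENCODE M21. Figures were drawn with matplotlib 3.10.9. No source says whether libraries of a group came from separate sorting days, so p-values measure the spread between these pools.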

Additional observations from a re-analysis of the deposited data

Results flagged for a closer look

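The fitted resection effects on Rarb, the retinoic acid receptor gene, differed between blood and spleen by 3.18 on the log2 scale (SE 0.50), past the limits as an interaction in edgeR. Rarb was chosen with these data known, so this is a description and no independent test, and it was lost in 11 of the 12 fits that each left out 1 library and with the replicate number as a block. In blood all 3 PH70% libraries lay above the intact ones (log2 fold change 2.15) and in spleen all 3 lay below (-1.02). Cyp26a1 (6.26) and Tgm2 (2.97) of the retinoic acid pathway also passed the limits in the same fit, and their calls were lost in 8 and 9 of 19 alternatives. The value of Cyp26a1 is set against 1, 4 and 1 counts in intact blood and is limited by depth. The log2 fold change of Cyp26a1 was 6.21 in blood and -0.05 in spleen, where the groups overlapped. That of Tgm2 was 4.13 in blood and 1.15 in spleen, and the latter was not called (edgeR adjusted p = 0.0725).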

How the results depend on the processing

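Of 208 counts of called genes recomputed under the alternatives, 184 stayed within 1.5 times the reported count. No called fold change of a member turned in direction. Of 154 calls of other listed genes, 93 held under every alternative and none turned in direction. For resection in blood, leaving out single libraries gave 6 to 9 called members and 7 to 14 of the 17 other peritoneal macrophage genes. For resection in spleen, DESeq2 called 1 member and 4 of the other genes, and leaving out single libraries gave 0 to 1 of the other genes. For the difference of the resection effects DESeq2 called 8 members and 7 of the other genes, a filter on genes with at least 10 counts in every library of a group called 4 members, no filter called 0, and leaving out single libraries gave 0 to 5 members and 0 to 2 of the other genes. The cause was not tested. Libraries with the same replicate number deviated together weakly or not at all (r from -0.046 to 0.189, over 0.1 in 2 of 18 pairs). Both of these were pairs of PH70% spleen with PH70% blood, at replicate 2 (0.131) and replicate 3 (0.189), while replicate 1 gave 0.042. Whether such libraries came from the same mice is not given in the sources used here. With the replicate number as a block 0 members were called for the difference of the resection effects. The block changed no other count by more than 1.5 times. Bcam missed the limit for resection in blood when only both blood groups were fitted (log2 fold change 1.22). In spleen Gata6 rests on 0 to 7 counts per library, so its fold changes against spleen are limited by depth.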
